A study of Mus musculus with 6 samples.

Results

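The genes described here are the 93 nuclear genes of the mitochondrial respiratory chain and of ATP synthase on the array, out of 37324 genes that its probes name. They were chosen by symbol alone, as genes whose names start with Nduf, Uqcr, Cox4i, Cox5, Cox6, Cox7, Cox8 or Atp5, together with Sdha, Sdhb, Sdhc, Sdhd and Cyc1. By these names 36 genes encode subunits of complex I, 4 of complex II, 9 of complex III, 17 of complex IV and 15 of complex V. The other 12 are assembly factors, relatives of subunits and the pseudogene Atp5c1-ps. Ndufa4 was counted with complex IV, where its product is now placed. Cox5b, whose product sits beside that of Cox5a, was not analysed here.

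The respiratory chain lies in the inner mitochondrial membrane. Complex I takes electrons from NADH and complex II takes them from succinate, both pass them to coenzyme Q, complex III hands them on to cytochrome c, and complex IV gives them to oxygen. Complexes I, III and IV pump protons, and complex V lets the protons flow back to make ATP. Most subunits are encoded in the nucleus and imported, and a small core of complexes I, III, IV and V is encoded by mitochondrial DNA. In the colon, absorptive epithelial cells are known to depend on this system to burn butyrate, and smooth muscle of the gut wall uses it as well.

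Total RNA of colon tissue with tumors was measured on 6 one-color arrays, 1 array per sample. All samples came from male C57BL/6 mice, 6 to 8 weeks old when they were obtained, for which no altered allele is stated. Every mouse had colitis-associated tumors raised with azoxymethane (AOM, 10 μg/g), a carcinogen, and dextran sodium sulfate (DSS, 2% for 5 days), which inflames the colon, so that the PBS group is a tumor-bearing control and not a healthy one. In the RG@M-γ-CD group (n = 3) the mice received regorafenib (RG), an inhibitor of several kinases, carried in nanoparticles of mannose-modified γ-cyclodextrin, by mouth at 30 μg/g of the complex, which holds 10 μg/g of RG. In the PBS group (n = 3) they received phosphate-buffered saline. Treatment lasted 21 days and was followed by 14 days of observation. The samples of a group came from separate mice, as the study's figure legends state.

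The share of gene probes marked well above background ran from 49.6% to 55.1% per array, and all arrays lay on 1 slide. All 12 epithelial markers and all 8 leukocyte markers were measured, while none of the 6 testis markers was well above background in every sample of a group. Smooth muscle markers (9 of 10 measured) differed widely between samples, with median deviations from the gene's own mean of -1.48, 1.23 and 1.55 (log2) on RG arrays 1, 2 and 3 and of -0.35, -0.59 and -0.37 on PBS arrays 1, 2 and 3. The heat map in the study's supplement places RG array 1 beside PBS arrays 2 and 3, and PBS array 1 beside RG arrays 2 and 3, which goes against the labels of both arrays. The labels were followed, and results that rest on these 2 arrays are also given without them or by that other grouping. All values below are log2 signals relative to the 75th percentile of the array, and a change is the RG@M-γ-CD mean minus the PBS mean on that scale. Signals of different probes are not compared with each other. Of the 93 genes, 90 were well above background on all 6 arrays. The other 3 (Cox6a2, Cox7b2 and Cox8c) were well above background on no array and were not tested.

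The respiratory chain genes were measured at nearly the same level in both groups. None of the 90 genes passed an adjusted p of 0.05 (limma, Benjamini-Hochberg over all genes tested), against a background of 0% of 19089 genes tested, the smallest adjusted p over all genes being 0.818. At an unadjusted p of 0.05, 0 of the 90 were called against 2.19% of all genes, and the smallest unadjusted p among them was 0.19, that of Cox8b. In 1 gene, Atp5s, the 3 arrays of 1 group lay apart from the 3 of the other, against 4.57% of all genes. The change was positive in 66 genes and negative in 24, with a median of 0.028 beside -0.012 over all genes tested. Apart from Cox8b, the changes lay between -0.30 and 0.22. The 95% interval of the change lay within 2-fold either way for 89 of the 90 genes (98.9%), with Cox8b the exception, and for 73.6% of all genes tested, and it lay within 1.5-fold for 69 of the 90 (76.7%) and for 37% of all genes. These counts depend on the number of arrays and on the fit, and were not compared with genes of like signal. With 1 array left out, the 2-fold count was from 85 to 88, while the 1.5-fold count was 27, 22 and 4 without RG arrays 1, 2 and 3 and 45, 3 and 1 without PBS arrays 1, 2 and 3. With the slide row as a block the 2-fold count was 72 and the 1.5-fold count 0. The direction rests on single arrays. Without PBS array 1 the change was positive in 13 of the 90 genes and negative in 77, with a median of -0.10, and without RG array 3 it was positive in 34 and negative in 56, with a median of -0.030. In bulk tissue, fewer cells of a type and less RNA per cell cannot be told apart.

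**Figure D1:**
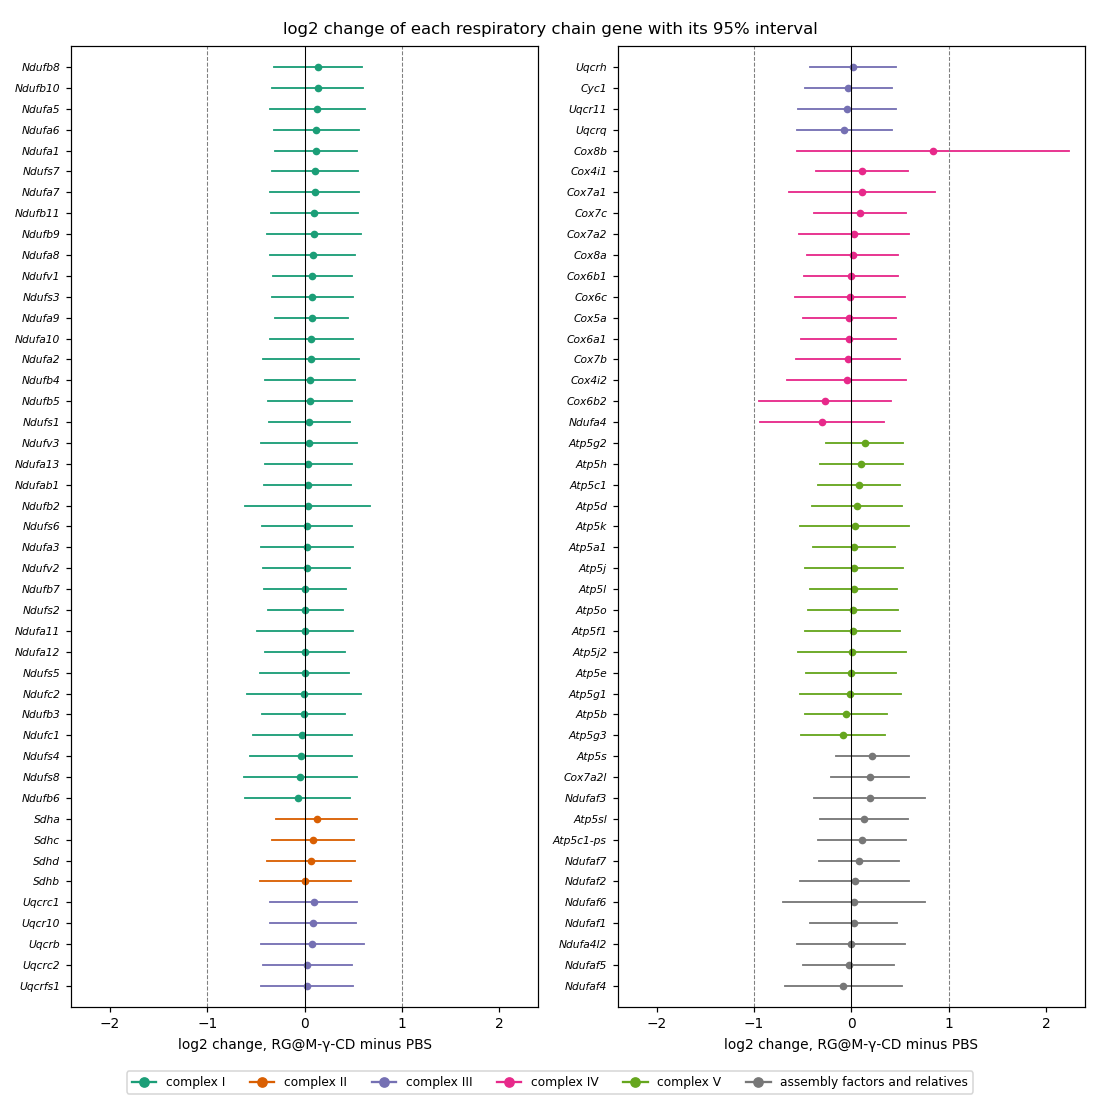
Log2 change (RG@M-γ-CD minus PBS, 3 arrays each) of the 90 respiratory chain genes measured, as points with 95% intervals from limma, colored by complex; dashed lines mark 2-fold. All intervals cross 0, and that of Cox8b, from -0.56 to 2.24, is the only one to pass 2-fold.

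Complex I, the entry point for electrons from NADH, was measured with all 36 of its genes, of which 30 had a positive and 6 a negative change (median 0.049, range -0.073 to 0.14). The 2 genes with the smallest p were the accessory subunits Ndufb8 and Ndufb10. Ndufb8 was measured at 6.26, 6.25 and 6.48 on RG arrays 1 to 3 and at 5.94, 6.45 and 6.19 on PBS arrays 1 to 3, a change of 0.14 ± 0.19 (SE, unadjusted p = 0.489 by limma). The groups overlapped, and the lowest value was that of PBS array 1. Ndufb10 was measured at 6.04, 6.43 and 6.38 in the RG@M-γ-CD group and at 5.93, 6.38 and 6.15 in the PBS group, again with PBS array 1 lowest. The core subunit Ndufs1, which carries iron-sulfur clusters, had means of 5.16 ± 0.12 (SD, n = 3) and 5.11 ± 0.21 (SD, n = 3). Ndufv1, which binds NADH and flavin, had means of 5.91 ± 0.08 and 5.83 ± 0.20 (SD, n = 3 each). Both differences were smaller than the spread between arrays of 1 group.

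Complex II, which oxidizes succinate and is also an enzyme of the TCA cycle, is encoded wholly in the nucleus. All 4 of its genes had a positive change (median 0.079). Sdha, the flavoprotein subunit, was measured at 4.87, 5.18 and 5.23 in the RG@M-γ-CD group and at 4.82, 5.10 and 4.99 in the PBS group, a change of 0.12 ± 0.17 (SE). RG arrays 2 and 3 were above all PBS arrays and RG array 1 was not. The iron-sulfur subunit Sdhb had a change of 0.007 ± 0.20 (SE), and the membrane anchors Sdhc and Sdhd by 0.09 ± 0.18 and 0.067 ± 0.19 (SE). The probes of Sdha disagreed in sign, with changes from -0.13 to 0.17 over the 3 probes well above background, and the value given is that of the brightest.

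In complex III, the cytochrome bc1 complex, 6 of 9 genes had a positive and 3 a negative change (median 0.023). Uqcrc1, a core protein of the matrix side, was measured at 5.35, 5.34 and 5.48 in the RG@M-γ-CD group and at 5.02, 5.57 and 5.31 in the PBS group. The PBS arrays held both the lowest and the highest value. Uqcr10, a small subunit, was measured at 7.49, 7.52 and 7.65 against 7.18, 7.71 and 7.51. The Rieske iron-sulfur protein Uqcrfs1 had a change of 0.023 ± 0.20 (SE) and cytochrome c1, Cyc1, by -0.034 ± 0.19 (SE).

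Complex V, ATP synthase, had 11 positive and 4 negative changes over 15 genes (median 0.023, range -0.09 to 0.14). Atp5b and Atp5a1, for the catalytic β and the α subunit of its head, had a change of -0.06 ± 0.18 and 0.025 ± 0.18 (SE). Atp5h, a subunit of the peripheral stalk, was measured at 6.63, 6.65 and 6.82 in the RG@M-γ-CD group and at 6.38, 6.84 and 6.56 in the PBS group. The membrane ring of ATP synthase is built from subunit c, a protein that Atp5g1, Atp5g2 and Atp5g3 all encode. Atp5g2 had the smallest p of the complex, with 7.29, 7.27 and 7.44 against 7.02, 7.38 and 7.19 and a change of 0.14 ± 0.16 (SE, unadjusted p = 0.436 by limma). Atp5g1 and Atp5g3 had a change of -0.011 ± 0.22 and -0.09 ± 0.18 (SE). The intervals of the 3 genes overlapped, and their difference was not tested.

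Complex IV, cytochrome c oxidase, was the complex with the widest range of changes, from -0.30 to 0.84 over 14 genes (6 positive, 8 negative, median -0.008). Several of its subunits come in tissue forms. Cox4i1, the general form of subunit 4, had means of 7.65 ± 0.14 and 7.54 ± 0.28 (SD, n = 3 each), and Cox4i2, a form known from lung, had means of -1.61 ± 0.27 and -1.56 ± 0.39 (SD). Of the forms known from other tissues, Cox6a2 (heart and skeletal muscle) and Cox7b2 and Cox8c (testis) were not well above background on any array. Their general counterparts Cox6a1, Cox7b and Cox8a had a change of -0.03 ± 0.20, -0.034 ± 0.22 and 0.011 ± 0.19 (SE). Cox5a, which has a single form, had a change of -0.021 ± 0.20 (SE).

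Cox8b, the form of subunit 8 known from muscle and brown fat, had the largest change and the largest spread of all 90 genes. Its probe lies at chr7:148084852-148084911 (mm9, from the scanner files). It was measured at -3.67, -1.84 and -1.62 on RG arrays 1 to 3 and at -3.76, -2.70 and -3.19 on PBS arrays 1 to 3. RG arrays 2 and 3 stood above the other 4 arrays, and RG array 1 was about as low as PBS array 1. The change was 0.84 ± 0.58 (SE, unadjusted p = 0.194 by limma), with a 95% interval from -0.56 to 2.24. With normexp background correction it was 0.38 ± 0.35 (SE), and without RG array 1 it was 1.49 ± 0.33 (SE, unadjusted p = 0.00428 by limma), which did not pass adjustment. Without that array, 12.5% of all genes passed an unadjusted p of 0.05. Cox8a, the general form, was measured at 7.54, 7.79 and 7.80 in the RG@M-γ-CD group and at 7.41, 7.96 and 7.73 in the PBS group, with a change near 0. The arrays high in Cox8b were those high in smooth muscle markers, and the smooth muscle list as a whole had a positive change in 9 of 9 genes (median 0.95, none past an unadjusted p of 0.05). Of 12 skeletal muscle markers 4 were measured (3 positive, 1 negative, median 0.52), and the list's defining genes Ckm, Myh1, Myh2 and Myh4 were not well above background in every sample of either group. Acta1, skeletal actin, was measured at -0.82, 0.03 and 0.53 in the RG@M-γ-CD group and at -1.51, -1.03 and -0.88 in the PBS group, with no overlap (change 1.05 ± 0.37, SE, unadjusted p = 0.0271 and adjusted p = 1 by limma). Tnnt3, a troponin of fast muscle, was measured at -3.88, -2.08 and -2.17 against -3.30, -3.72 and -4.09, highest on the same RG arrays 2 and 3 as Cox8b. The other measured skeletal markers did not follow these arrays. Mylpf was lowest on RG array 2, at -3.125 (change 0.044 ± 0.35, SE). Tnni2 was measured at 0.53, 0.12 and 0.46 against 1.28, 0.52 and 0.60 (change -0.43 ± 0.25, SE). Of 9 heart muscle markers 5 were measured (3 positive, 2 negative, median 0.36). Actc1, Tnnt2 and Myl4 were also highest on RG arrays 2 and 3, while Myl7 and Tnni3 were not. Of 6 brown fat markers, Cox8b itself included, 4 were measured (2 positive, 2 negative, median -0.16). The brown fat gene Ucp1 was not well above background in every sample of either group. Cidea and Dio2 were lowest on RG array 2, and Ppargc1a was highest there. Of 10 white fat markers 6 were measured (5 positive, 1 negative, median 0.48). Plin4 and Fabp4 were highest on RG arrays 2 and 3, while Cidec, Lep, Lipe and Pnpla2 were not. The part of muscle or fat content in the values of Cox8b was not tested.

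Cox7a1, the muscle form of subunit 7a, whose probe spans chr7:30970337-30970948 (mm9), was measured at 3.36, 4.17 and 4.41 on RG arrays 1 to 3 and at 3.68, 4.21 and 3.73 on PBS arrays 1 to 3. RG array 1 held the lowest value and RG array 3 the highest, and the groups overlapped (change 0.11 ± 0.31, SE). Cox7a2, the general form, was measured at 6.50, 6.39 and 6.72 against 6.07, 6.78 and 6.69. Cox7a2l, a relative that joins complexes III and IV into supercomplexes, was measured at 6.57, 6.83 and 6.81 against 6.39, 6.69 and 6.56 (change 0.19 ± 0.17, SE). Cox6b2, the testis form of subunit 6b, was low on 5 arrays, from -0.89 to -0.31, and highest on PBS array 3, at 0.15. Cox6b1, the general form, had a change of -0.004 ± 0.20 (SE).

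Ndufa4 (probe at chr6:11850423-11850482, mm9) had the most negative change of the 90 genes. It was measured at 5.44, 4.53 and 5.19 on RG arrays 1 to 3 and at 5.14, 5.46 and 5.46 on PBS arrays 1 to 3, a change of -0.30 ± 0.27 (SE, unadjusted p = 0.298 by limma). RG array 2 lay apart at the low end, and the other 5 arrays lay between 5.14 and 5.46. Its relative Ndufa4l2, a gene known to be induced by low oxygen, was measured at -1.40, -1.04 and -1.48 against -1.28, -0.98 and -1.66, a change of -0.004 ± 0.23 (SE).

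**Figure D2:**
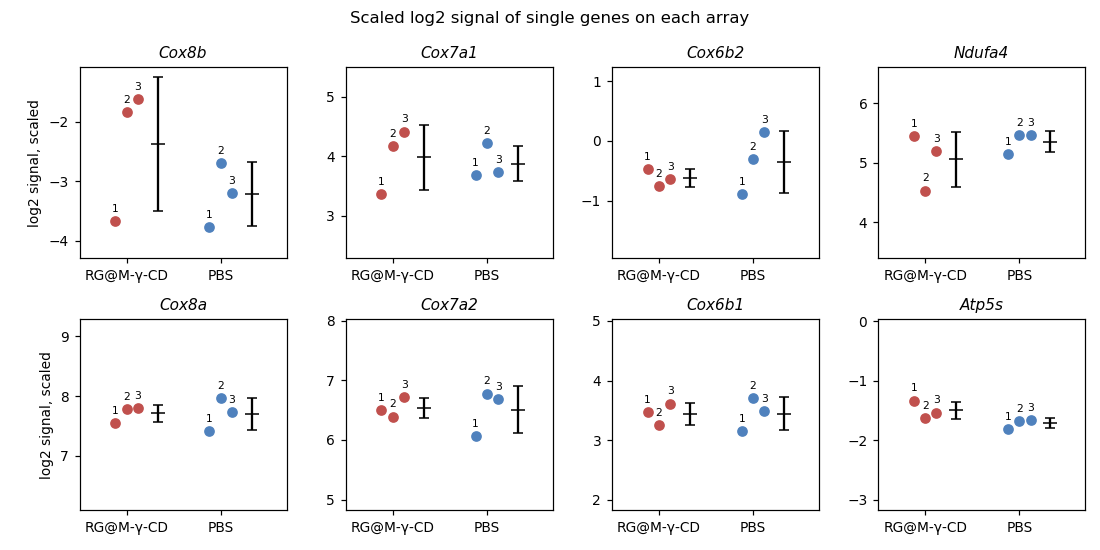
Scaled log2 signal of 8 genes on each array (points, numbered by replicate), with the mean and SD of the 3 arrays of each group beside them; all panels span the same log2 range, but the position of the axis differs by gene. Cox8b was high on RG arrays 2 and 3, at -1.84 and -1.62, Ndufa4 was low on RG array 2, at 4.53, and in Atp5s the groups did not overlap.

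Of the assembly factors and relatives, 9 of 12 had a positive and 3 a negative change (median 0.057). Atp5s, also called factor B, a protein tied to ATP synthase coupling (probe at chr12:70842700-70842759, mm9), was measured at -1.34, -1.63 and -1.54 in the RG@M-γ-CD group and at -1.81, -1.67 and -1.66 in the PBS group, so that every RG array was above every PBS array. The change was 0.22 ± 0.16 (SE, unadjusted p = 0.211 by limma) and the nearest values were -1.63 on RG array 2 and -1.66 on PBS array 3. With normexp background correction and with quantile normalization the groups overlapped. Among the factors that help build complex I, Ndufaf6 was the most variable, at 0.80, -0.17 and 0.50 against -0.03, 0.55 and 0.53, with RG array 2 and PBS array 1 low. Its 3 probes gave changes from 0.028 to 0.46, the widest disagreement among these genes. The pseudogene Atp5c1-ps is near in sequence to Atp5c1, and a probe may not tell them apart.

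While the group means hardly differed, the genes deviated together from array to array. The median deviation of the 78 measured subunits of complexes I to V from their own means over the 6 arrays was -0.016, -0.067 and 0.15 on RG arrays 1 to 3 and -0.30, 0.20 and 0.031 on PBS arrays 1 to 3. On PBS array 1, 0 of the 78 subunits were above their own mean, on PBS array 2 all 78 were, and on RG array 3, 76 were. The low and the high extreme were therefore both in the PBS group. Over all genes tested the medians were 0.057, -0.096 and 0.033 in the RG@M-γ-CD group and -0.11, 0.070 and 0.037 in the PBS group. Complexes I, II, III, IV and V each had their lowest median on PBS array 1, between -0.285 and -0.335. The mean correlation between pairs of subunit genes over the 6 arrays, with the group means removed, was 0.81 for all 78 subunits, 0.83 in complex I, 0.80 in complex II, 0.92 in complexes III and V, 0.65 in complex IV and 0.34 among assembly factors and relatives. It was 0.064 over all genes tested. Among other mitochondrial lists, the large and small subunits of the mitochondrial ribosome gave 0.85 and 0.86. Mitochondrially encoded subunits gave 0.74, TCA cycle enzymes 0.67 and biogenesis regulators 0.051. Marker lists ranged from -0.25 for brown fat to 0.98 for smooth muscle, with 0.89 for leukocytes, 0.68 for epithelium and 0.28 for absorptive colonocytes. A high value was thus not particular to the subunits, and not every list had one. These values describe 6 arrays that the genes share, and carry no test.

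The size of this shared deviation depended on the scaling of the arrays. With quantile normalization the median deviations of the subunits were -0.047, 0.043 and 0.093 on RG arrays 1 to 3 and -0.10, 0.020 and -0.006 on PBS arrays 1 to 3, and the mean correlation between pairs was 0.35. The authors' value table gave 0.35 as well, and normexp background correction, which keeps the scaling to the 75th percentile, gave 0.785. With the mean of a gene's probes in place of the brightest it was 0.647. PBS array 1 had the lowest median under every one of these settings, and on RG array 3 the subunits above their mean were 76 of the 78, or 74 with the mean of a gene's probes, while with quantile normalization the high value of PBS array 2 shrank from 0.20 to 0.020 and RG array 2 went from below to above 0. The subunits also varied little. Their median SD over the 6 arrays was 0.195, against 0.27 for all genes tested, and with quantile normalization it was 0.103 against 0.261. On the 75th percentile scale it was lower still for TCA cycle enzymes (0.163) and biogenesis regulators (0.175). For the large and small subunits of the mitochondrial ribosome it was 0.247 and 0.216. Of the 90 genes, 78 (86.7%) had an SD below the median of all genes tested. Most of the subunits had signals far above the 75th percentile of the array, and their spread was not compared with genes of like signal.

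**Figure D3:**
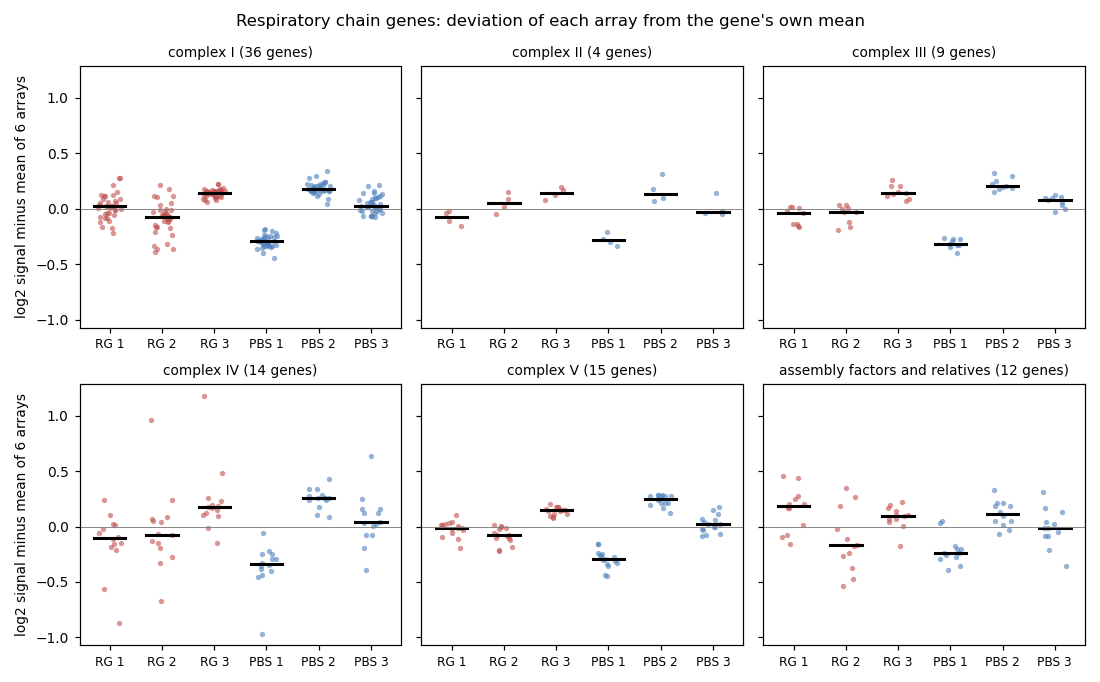
Each point is 1 gene on 1 array, as its log2 signal minus its own mean over the 6 arrays, in 6 panels by complex; black bars are medians. The points of complexes I, II, III and V lie close together on each array, low on PBS array 1 and high on RG array 3 and PBS array 2, and complex IV and the assembly factors are more scattered.

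Promoter sequence was read for these genes because they deviated together, but a link between sequence and deviation was not tested. RefSeq windows of 250 bases before to 50 after the start (GRCm38.p6) were found for 75 of the 93 genes, 81 windows in all. 4 motifs known from nuclear genes for mitochondrial proteins or from promoters in general were searched on both strands, and the TATA box, spelled TATAAA, on the strand of the gene. The NRF-1 motif GCGCATGCG was held by 12.3% of the windows, against 2.35% of 21255 windows of protein-coding genes. The GABPA (NRF-2) motif CCGGAAG was held by 21% against 11.6%, and the YY1 motif AAGATGGC by 14.8% against 3.05%. The Sp1 motif GGGCGG was held by 43.2% against 46.2%, and TATAAA by 3.7% against 8.26%. The median number of CG dinucleotides was 20 in a window, against 13 for protein-coding genes. A window in which letters match is not a site shown to be bound, and a window without a match says only that those letters are not in it.

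The windows below are the 250 bases before the start, 5′ to 3′ on the strand of the gene, with matches to any of the motifs in capitals. Cox6a1, Atp5j, Atp5k and Atp5o are examples, picked for their motifs, from a set of 53 genes. These were lowest on PBS array 1 and highest on PBS array 2. The share of all genes tested with that order was not counted. The median deviation of all genes tested was also lowest on PBS array 1 (-0.105) and highest on PBS array 2 (0.07). With quantile normalization the median of the subunits was still lowest on PBS array 1 (-0.1). It was then highest on RG array 3 (0.093) and not on PBS array 2 (0.02). In the stretch printed, Cox6a1 holds NRF-1, GABPA and Sp1 matches, Atp5j YY1 and GABPA matches, Atp5k an NRF-1 match, and Atp5o no match. The full window of Atp5k, with the 50 bases after the start, also holds a GABPA match. Atp5j has a further window with an Sp1 match and neither YY1 nor GABPA, which is not printed. The muscle forms Cox7a1 and Cox8b, among the 3 most variable genes, hold no match in this stretch. The gene counts that follow are over full windows, with the 50 bases after the start. Of the 44 of these 53 genes that have a window, 13 held none of the 5 motifs and 24 held none of NRF-1, GABPA and YY1. Of the 30 other genes measured that have one, the counts were 8 and 17.
Cox6a1, chr5:115348959-115349208, minus strand: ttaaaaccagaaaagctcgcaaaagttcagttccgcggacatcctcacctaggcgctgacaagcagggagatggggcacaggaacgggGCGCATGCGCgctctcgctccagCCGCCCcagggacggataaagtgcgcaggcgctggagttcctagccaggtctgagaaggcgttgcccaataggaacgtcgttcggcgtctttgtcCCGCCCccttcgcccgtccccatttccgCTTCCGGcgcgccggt
Atp5j, chr16:84834977-84835226, minus strand: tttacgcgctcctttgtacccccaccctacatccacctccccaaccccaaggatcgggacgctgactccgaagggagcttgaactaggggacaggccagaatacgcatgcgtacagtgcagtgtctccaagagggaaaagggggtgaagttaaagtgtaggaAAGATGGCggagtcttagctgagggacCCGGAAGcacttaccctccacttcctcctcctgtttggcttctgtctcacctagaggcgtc
Atp5k, chr5:108434400-108434649, minus strand: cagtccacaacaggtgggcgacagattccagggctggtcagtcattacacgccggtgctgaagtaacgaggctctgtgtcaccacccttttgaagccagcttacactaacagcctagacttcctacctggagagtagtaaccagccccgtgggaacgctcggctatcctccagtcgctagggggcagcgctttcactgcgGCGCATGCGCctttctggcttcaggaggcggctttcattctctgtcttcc
Atp5o, chr16:91931631-91931880, minus strand: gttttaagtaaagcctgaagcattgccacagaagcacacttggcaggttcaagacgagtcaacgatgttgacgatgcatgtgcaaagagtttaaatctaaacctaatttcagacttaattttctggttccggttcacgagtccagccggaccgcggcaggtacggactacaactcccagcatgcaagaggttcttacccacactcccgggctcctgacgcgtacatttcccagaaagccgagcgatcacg
Cox7a1, chr7:30183921-30184170, plus strand: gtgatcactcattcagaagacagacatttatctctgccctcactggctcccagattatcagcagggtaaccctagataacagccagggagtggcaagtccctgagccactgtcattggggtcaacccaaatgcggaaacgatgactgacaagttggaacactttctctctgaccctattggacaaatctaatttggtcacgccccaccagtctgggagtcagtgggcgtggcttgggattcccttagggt
Cox8b, chr7:140900447-140900696, minus strand: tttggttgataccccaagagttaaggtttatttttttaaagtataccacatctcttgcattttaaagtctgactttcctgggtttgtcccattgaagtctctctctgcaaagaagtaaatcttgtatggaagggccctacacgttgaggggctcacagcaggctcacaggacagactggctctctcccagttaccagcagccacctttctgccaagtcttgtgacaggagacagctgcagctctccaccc

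The Cox8b window held 2 CG dinucleotides and that of Cox7a1 held 7, against 32 for Cox6a1. A TATAAA lies just after the start of Cox8b, outside the stretch printed. The genes for the factors themselves were measured too. Nrf1 had a change of 0.099 ± 0.17, Gabpa by -0.018 ± 0.25 and Yy1 by -0.03 ± 0.18 (SE), and none was past an unadjusted p of 0.05.

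Other genes of the pathway were described by lists. The mitochondrially encoded subunits (11 measured) had 4 positive and 7 negative changes, with a median of -0.033. Their median deviations were -0.26, 0.19 and 0.12 on RG arrays 1 to 3 and -0.16, 0.37 and -0.11 on PBS arrays 1 to 3, with RG array 1 lowest, unlike the nuclear subunits. COX1, a catalytic subunit of complex IV, was measured at 7.87, 7.96 and 8.16 against 7.86, 8.44 and 8.04, and ND6, a subunit of complex I, had a change of -0.31 ± 0.31 (SE). Cytochrome c, coenzyme Q and other assembly genes had 37 positive and 21 negative changes over 58 genes (median 0.028). The smallest p of that list was that of Coq10a, a coenzyme Q binding protein, at 0.27 ± 0.15 (SE, unadjusted p = 0.121 by limma).

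Enzymes of the TCA cycle, which feeds complexes I and II, had 15 positive and 3 negative changes (median 0.071), led by Suclg2, a subunit of succinyl-CoA ligase, at 0.31 ± 0.22 (SE). Genes of mitochondrial fatty acid oxidation had 20 positive and 3 negative changes (median 0.158). In that list Cpt1a, which admits long-chain fatty acids to mitochondria, was measured at 3.65, 3.93 and 4.16 in the RG@M-γ-CD group and at 3.40, 3.74 and 3.39 in the PBS group. RG arrays 2 and 3 were above all PBS arrays, and the change was 0.40 ± 0.20 (SE, unadjusted p = 0.0855 by limma). No gene of these lists passed an unadjusted p of 0.05.

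The mitochondrial ribosome had 22 positive and 27 negative changes in its large subunit (median -0.0096) and 14 and 15 in its small subunit (median -0.0057). Mrpl35 and Mrps35 had the smallest p of each, with changes of 0.23 ± 0.21 and 0.13 ± 0.16 (SE). Import proteins and carriers had 11 positive and 16 negative changes (median -0.010), with Vdac3, a channel of the outer membrane, at 0.16 ± 0.19 (SE). Regulators of mitochondrial biogenesis had 13 positive and 8 negative changes (median 0.073). Ppargc1a, the coactivator PGC-1α, was measured at 1.62, 2.70 and 1.69 against 2.19, 1.78 and 1.41, and the deacetylase Sirt1 had a change of 0.20 ± 0.14 (SE). Uncoupling proteins and antioxidants had 4 positive and 7 negative changes (median -0.024), with Txnrd2 at 0.13 ± 0.15 (SE). None of these genes passed an unadjusted p of 0.05.

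From array to array, the general epithelial markers moved much as the subunits did. Their median deviations were 0.010, -0.15 and 0.13 on RG arrays 1 to 3 and -0.34, 0.25 and 0.14 on PBS arrays 1 to 3. Markers of 2 epithelial cell types did not, and were lowest on RG array 1. Absorptive colonocyte markers gave -0.86, 0.18 and 0.92 against -0.31, 0.27 and 0.31 (3 positive and 10 negative changes, median -0.18). Goblet cell markers were at -1.33 on RG array 1 and at -0.46 on PBS array 1. Leukocyte markers were highest on PBS array 1, at 0.80, where the subunits were lowest, and were -0.71 on RG array 2. The leukocyte list had a negative change in 8 of 8 genes (median -0.62, 1 past an unadjusted p of 0.05, Lcp1), and the goblet cell list in 8 of 8 (median -0.43). The large subunit of the mitochondrial ribosome gave 0.20, -0.32 and 0.11 in the RG@M-γ-CD group and -0.27, 0.18 and 0.11 in the PBS group. The marker lists were not read under the other scalings, on which the size of the subunits' shared deviation depended. The part of cell composition in that shared deviation was not tested.

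**Figure D4:**
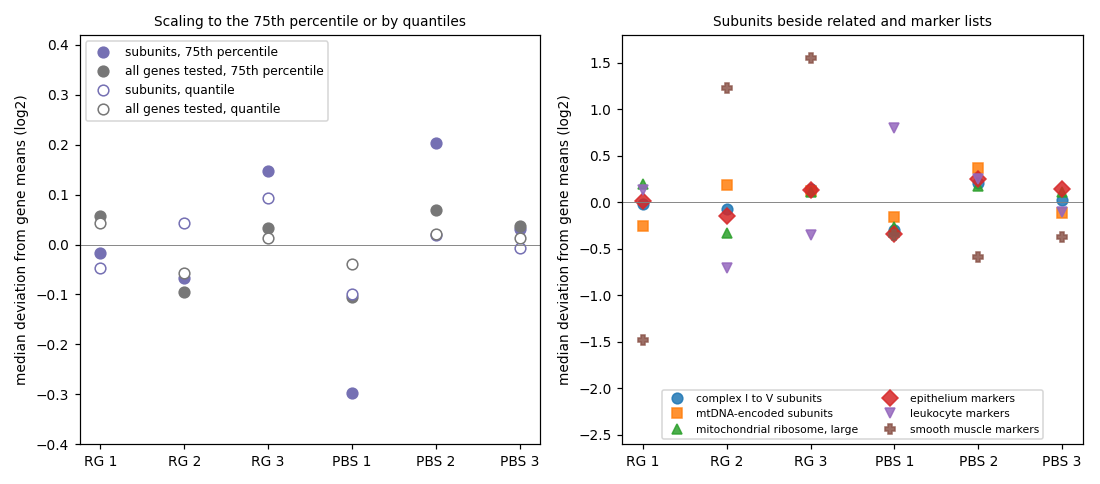
Median deviation of each array (log2) from gene means; left, subunits and all genes tested, with scaling to the 75th percentile (filled) or by quantiles (open), and right, subunits beside 5 other lists. On PBS array 1 the subunits were at -0.30 with the first scaling and at -0.10 with the second. The right panel uses the first scaling only, with the epithelial markers at -0.34 and the leukocyte markers at 0.80 on that array.

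By the grouping of the heat map (arrays RG 2, RG 3 and PBS 1 minus RG 1, PBS 2 and PBS 3, with neither side named as treated), 83 of the 90 genes were lower on the first side, with a median of -0.147 beside -0.116 over all genes tested. None passed an adjusted p of 0.05, against 0.0259% of 19297 genes tested, and 4 of the 90 passed an unadjusted p of 0.05 against 16.5% of all genes. These were Cox6b2 (-0.55), Ndufaf6 (-0.53), Ndufa4 (-0.50) and Ndufs8 (-0.41), a core iron-sulfur subunit of complex I. Without the 2 arrays in doubt, RG array 1 and PBS array 1, the change of RG@M-γ-CD against PBS (2 arrays each) was positive in 21 genes and negative in 69 (median -0.083), and 2 genes, Cox8b and Cox6b2, passed an unadjusted p of 0.05, against 12.3% of all genes.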

How the data were processed

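The intensity of each spot was deposited by the authors as Feature Extraction 10.7.1.1 gave it, after background correction and before any scaling across arrays. The log2 table deposited by the authors, whose 6 columns share 1 distribution, served as an alternative. Here spots marked as outliers (790 in all) were left out, spots of a probe were averaged, and log2 intensities had the 75th percentile of their own array subtracted. A probe was tested if every array of 1 group or the other had it well above background, and the brightest such probe stood for its gene. Through their accessions, 58.3% of the gene probes were given a current symbol, and the others and all genes of the rule kept the name in the files. Changes were fitted with limma 3.58.1 (R 4.3.3), with Benjamini-Hochberg adjustment over all genes tested and a threshold of 0.05. The fit was tested on simulated data in which each gene varied on its own, so that test does not cover deviations that genes share. The number of arrays limits the precision. The genes, lists and named genes (the 2 with the smallest p in each complex, isoform sets, core subunits, the 3 most variable, and the smallest p of each related list) were chosen with earlier results of these data known. Ndufs8, Nrf1, Gabpa, Yy1, COX1, Ppargc1a, Atp5j, Atp5k, Atp5o, Acta1, Tnnt3, Actc1, Tnnt2, Myl7 and Tnni3 were named after their values were seen. The same holds for Myl4, Mylpf, Tnni2, Cidea, Dio2, Plin4, Fabp4, Cidec, Lep, Lipe and Pnpla2. Alternatives were other normalizations and background correction, other filters and probe rules, blocks for replicate number and slide row, leaving out arrays, the t-test of the methods and the grouping of the heat map. Array deviations under other scalings, and leaving out 2 arrays together, were added after seeing the data.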

Additional observations from a re-analysis of the deposited data

How the results depend on the processing

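No gene of the respiratory chain passed an adjusted p of 0.05 under any alternative run, the methods' t-test included (0 at an unadjusted p of 0.05 or below, against 381 of all genes tested). Over all genes, the number past an adjusted p of 0.05 ranged from 0 to 202 when arrays were left out, the highest without RG array 1, and was 5 by the grouping of the heat map. Respiratory chain genes at an unadjusted p below 0.05 ranged from 0 to 2 when arrays were left out (Cox8b without RG array 1, and Cox8b and Cox6b2 without RG array 1 and PBS array 1) and were 4 by the heat map. The shares over all genes were 12.5% without RG array 1, 12.3% without both arrays and 16.5% by the heat map.

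Genes whose groups do not overlap were 8 of 90 with quantile normalization (5.33% of all genes), 7 with the authors' value table (5.29%), 0 with normexp and 7 by the heat map (25.5%), and ranged from 1 to 22 when arrays were left out, with 25.9% of all genes without RG array 1 and 49.3% without both arrays. The 8 with quantile normalization were all higher in the RG@M-γ-CD group and did not hold Atp5s.

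With the slide row as a block, which sets the RG arrays against PBS array 1 alone, the median change of the genes was 0.313, and 0.319, 0.309, 0.327, 0.316 and 0.313 for complexes I to V and 0.279 for assembly factors. Slide row 1 held all RG arrays and PBS array 1, and row 2 held PBS arrays 2 and 3. By the heat map the medians of complex I and of the assembly factors were -0.147 and -0.211. Leaving out arrays, the median ranged from -0.102 to 0.149 over all genes of the chain. Complexes I to V gave ranges from -0.0825 to 0.153, from -0.0531 to 0.176, from -0.116 to 0.117, from -0.15 to 0.146 and from -0.133 to 0.146, and assembly factors from -0.102 to 0.152. Without PBS array 1 the change turned sign in 55 of the 90 genes.

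The replicate numbers of the labels did not pair the arrays, since deviations of same-numbered arrays correlated at -0.25, -0.233 and 0.136. With the replicate number as a block, 0 genes passed adjustment, and the median change of the genes was 0.0277, while the intervals within 1.5-fold were 22 in place of 69.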
